A study of Mus musculus with 26 samples.

Results

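Liver RNA of mice given benoxacor at 50 mg/kg was compared with that of mice given 0.5 mg/kg, across all expressed genes. The comparison takes every mouse labelled with either dose, which is 13 of the 26 mice sequenced: 8 at 50 mg/kg and 5 at 0.5 mg/kg. All were C57BL/6, a common inbred laboratory strain, and each library is the liver of 1 mouse. Mice of every dose were acclimatised between 4 and 8 weeks with their bedding mixed to even out the gut microbiome, then gavaged by mouth on 3 consecutive days, and livers were taken 24 hours after the last gavage. The labels give neither sex nor vehicle. The mice at 0 mg/kg (5) and 5 mg/kg (8) do not enter the main fit. Their levels are shown for a few genes, and they enter an alternative fit with all 26 mice.

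Benoxacor is a herbicide safener, a compound added to herbicide products to protect the crop. In liver, foreign chemicals are commonly met by the nuclear receptors CAR and PXR, which switch on cytochrome P450 enzymes, transferases and transporters, and by the stress factors NRF2 and HSF1, which switch on antioxidant genes and protein chaperones. The same hepatocytes make bile acids from cholesterol and secrete the acute phase proteins of inflammation, so a liver profile reads several of these programmes at once.

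By their labelled numbers the mice fall in 2 runs. Mice 601 to 616 hold 4 of the 50 mg/kg mice and 3 of the 0.5 mg/kg mice, and mice 619 to 632 hold 4 and 2. What sets the runs apart is not stated, and the fit carries a term for run. Within each run all 50 mg/kg mice have higher numbers than all 0.5 mg/kg mice, so the dose and anything that follows the number order cannot be told apart. Libraries held 5913429 to 8662751 counts at 50 mg/kg and 5433074 to 9088626 at 0.5 mg/kg. The 10 hepatocyte markers were present in all 13 libraries, with albumin (Alb) at 33685 CPM or more, where CPM is the TMM-scaled read count as edgeR's cpm gives it. Of 10 markers of exocrine pancreas 6 were at 0 reads in all 13, as were 3 of 8 markers of steroid-producing cells (Cyp11a1, Cyp11b1, Mc2r). The 8 summed to 115 to 169 CPM at 50 mg/kg and 85.6 to 166 CPM at 0.5 mg/kg, of which Scarb1, a lipoprotein receptor that hepatocytes also express, held at least 70.5 CPM in each mouse. The 10 pancreatic markers summed to 15.2 to 28.2 CPM at 50 mg/kg and 15.6 to 21.1 CPM at 0.5 mg/kg. Of these Cela1 held at least 14.9 CPM in each mouse. Replicates 1 and 2 at 0.5 mg/kg, both in the run 601 to 616, stood apart in some inflammatory genes. Their levels of Saa1, which encodes a serum amyloid, were 2311 and 3233 CPM, where none of the other 11 mice passed 655 CPM, and the summed level of 12 neutrophil and monocyte markers was 59.5 and 27.8 CPM in them, against at most 11.8 CPM in the others. Of those markers Ly6g and Mpo were at 0 in all 13 mice, while S100a9 reached 18.6 CPM at 0.5 mg/kg and at most 3.19 CPM at 50 mg/kg. List medians and many single values moved without these mice, and the values without them are given beside the results they move most. Replicates 1 and 2 were not alike in other respects. Replicate 1 had the fewest counts, the lowest hepatocyte marker sum (53640 CPM, 133570 in replicate 2) and the highest mitochondrially encoded sum (109910 CPM, 77073 in replicate 2). Its summed acute phase genes, at 54898 CPM, lay within the 30937 to 74157 CPM of the 50 mg/kg mice, while replicate 2 had 96234 CPM.

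No gene passed in the comparison of 50 with 0.5 mg/kg. Of 13653 genes tested, 0 (0%) had an adjusted p under 0.05 by edgeR's quasi-likelihood fit (Benjamini-Hochberg adjusted), and limma-voom also called 0, while DESeq2 called 1, the inducible chaperone gene Hspa1b. At an unadjusted p under 0.05 there were 279 genes higher (2.04%) and 195 lower (1.43%), 474 in all, where 683 would be expected with no difference. All 8 mice at 50 mg/kg lay above all 5 at 0.5 mg/kg in 8 genes (0.0586%) and below all 5 in 4 genes (0.0293%). The number expected with no difference was not worked out, so genes named for non-overlap are a description. The median log2 fold change over all genes was 0.01, with 7225 positive. A principal component analysis did not separate the doses: the leading component, with 35.1% of the variance, placed 0.5 mg/kg replicates 1 and 2 at 40.9 and 31.3 and replicates 4 and 5 at -33.9 and -39.8, and the 50 mg/kg mice ran from -38.7 to 41.8. The median standard error of a log2 fold change was 0.19.

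Hspa1b, which encodes the stress-inducible form of the chaperone HSP70, had the smallest p of all genes in the main fit and was lower at 50 mg/kg. It lies on chromosome 17 from 34956436 to 34959238 on the minus strand of mm10. The 50 mg/kg mice had 4.77 to 12.8 CPM with a median of 7.55, against 13.5, 12.7, 16.4, 18.8 and 16.0 CPM in the 0.5 mg/kg mice. The groups overlapped by 1 mouse, 50 mg/kg replicate 5, the highest of its dose, which lay just above 0.5 mg/kg replicate 2. Its level averaged 7.96 ± 2.37 CPM at 50 mg/kg (SD, n = 8), against 15.5 ± 2.45 CPM at 0.5 mg/kg (SD, n = 5), a log2 fold change of -1.01 ± 0.16 (SE, 95% confidence interval -1.36 to -0.66). The adjusted p was 0.175 in edgeR's quasi-likelihood test, whereas DESeq2 gave -1.02 with an adjusted p of 0.000259. With all 26 mice in the fit, Hspa1b no longer had the smallest p. Gm42839 did, with an adjusted p of 0.573 in edgeR. The log2 fold change of Hspa1b was -1.12 within the run 601 to 616 and -0.90 within the run 619 to 632. Without 0.5 mg/kg replicates 1 and 2 it was -1.06, with an adjusted p of 0.836 in edgeR. Over the 4 doses, of which 0 and 5 mg/kg enter no test, the means were 18.1 ± 5.97 CPM at 0 mg/kg (n = 5), 15.5 at 0.5, 9.09 ± 3.59 at 5 (n = 8) and 7.96 at 50 (SD), with the neighbouring doses overlapping.

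The promoter of Hspa1b is shown because this gene had the smallest p, and that of Hspa1a because it is a near-identical neighbouring copy. The 250 bases before each start site, from RefSeq on GRCm38.p6, minus strand, are written 5′ to 3′ for Hspa1b (chr17:34959239-34959488) and Hspa1a (chr17:34972157-34972406). Capitals mark GAANNTTC, the head-to-head pair of GAA units that forms the core of the heat shock element, the binding sequence of HSF1.
Hspa1b: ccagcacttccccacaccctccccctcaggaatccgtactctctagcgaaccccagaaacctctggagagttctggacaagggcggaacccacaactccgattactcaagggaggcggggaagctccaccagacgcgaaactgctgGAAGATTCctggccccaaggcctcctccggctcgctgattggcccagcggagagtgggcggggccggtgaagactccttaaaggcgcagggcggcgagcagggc
Hspa1a: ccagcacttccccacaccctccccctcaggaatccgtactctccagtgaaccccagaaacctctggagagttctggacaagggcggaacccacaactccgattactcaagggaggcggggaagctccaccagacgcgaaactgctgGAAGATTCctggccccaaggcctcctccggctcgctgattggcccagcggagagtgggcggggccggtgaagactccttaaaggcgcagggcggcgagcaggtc
The windows differ at 3 of 250 positions, and each holds the motif once, at base 147. The motif reads the same on both strands, and 2199 of 32851 promoter windows of this length (6.69%) hold it. Hspa1a was too low to test, with 1 to 8 reads per mouse at 50 mg/kg and 1 to 13 at 0.5 mg/kg, against 30 to 92 and 69 to 152 reads for Hspa1b. Reads shared by both copies may have been dropped or split in the deposited counts, so the level of Hspa1b is uncertain. Summed over both genes the 50 mg/kg mice had 4.93 to 13.18 CPM and the 0.5 mg/kg mice 13.20 to 20.4 CPM, so the groups met without overlapping.

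**Figure D1:**
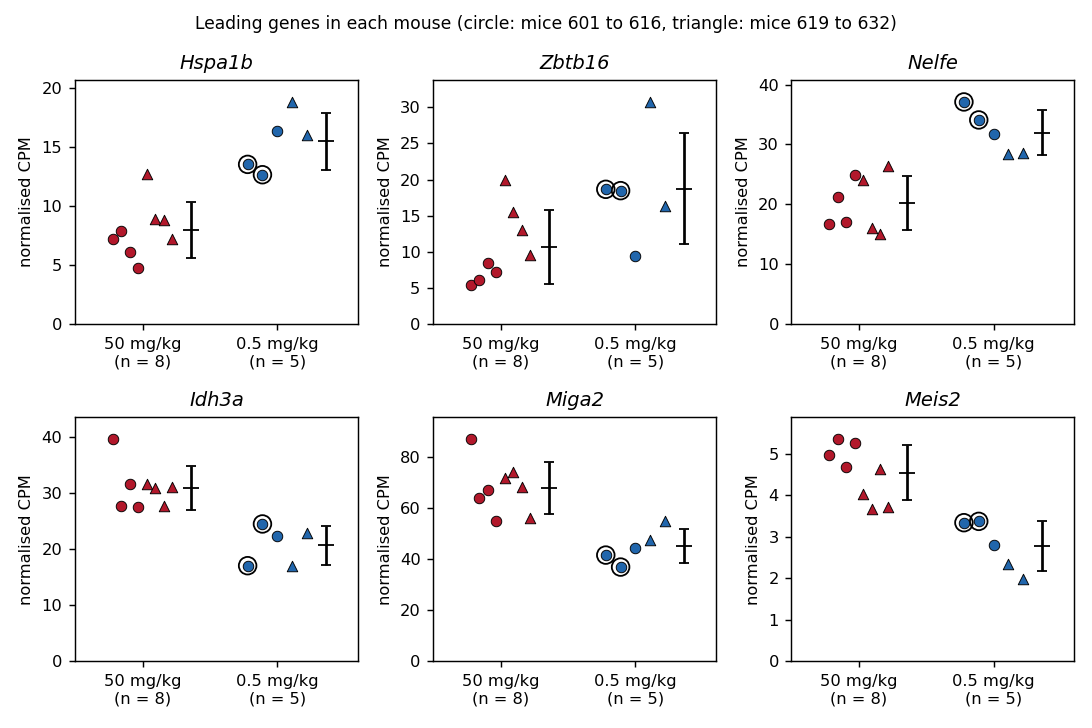
Normalised CPM of 6 leading genes in each mouse, 50 mg/kg (red, n = 8) and 0.5 mg/kg (blue, n = 5). Circles are mice 601 to 616 and triangles mice 619 to 632, ringed points are 0.5 mg/kg replicates 1 and 2, and the bar beside each group is its mean ± SD. The groups do not overlap for Nelfe, Idh3a, Miga2 and Meis2, and for Hspa1b only 50 mg/kg replicate 5, at 12.8 CPM, reaches the 0.5 mg/kg mice.

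Most heat shock genes had negative values. Of 22 chaperones, co-chaperones and heat shock factors tested, Hspa1b included in this and the following counts, 20 had negative and 2 positive log2 fold changes, with a median of -0.22 beside 0.01 over all genes, and 0 passed over all genes. At an unadjusted p under 0.05 there were 3 lower (1.43% of all genes were) and 0 higher. Dnajb1, an HSP40 partner of HSP70, had 9.25 to 18.1 CPM (median 14.3) at 50 mg/kg, against 16.5, 12.8, 20.3, 22.1 and 21.2 CPM at 0.5 mg/kg, a log2 fold change of -0.42 ± 0.18 (SE). The HSP110 exchange factor Hsph1 had 45.9 to 116 CPM (median 79.2) at 50 mg/kg, against 96.2, 143, 90.2, 134 and 109 CPM at 0.5 mg/kg (-0.50 ± 0.23, SE), and the small chaperone Cryab had 0.957 to 3.02 CPM against 2.02 to 3.14 CPM (-0.51 ± 0.26, SE). The groups overlapped for all 3 genes. The constitutive HSP70 gene Hspa8 was at -0.34 and the HSP90 genes Hsp90aa1 and Hsp90ab1 at -0.48 and -0.12 on the log2 scale, while the heat shock factors Hsf1 (0.06) and Hsf2 (0.16) were the positive members. The list's median was -0.22 without 0.5 mg/kg replicates 1 and 2 as well (19 of 22 negative), -0.18 within the run 601 to 616 and -0.36 within the run 619 to 632. It was 1 of 3 among 38 pathway lists with a negative median in both runs. Of the 22 genes 16 had a promoter window, and 6 of these held the motif, among them Dnaja1, Hspb1 and the mitochondrial chaperones Hspd1 and Hspe1, while the windows of Dnajb1 and Hsph1 did not hold these letters.

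Zbtb16, a zinc finger repressor that also answers to glucocorticoids, followed Hspa1b in the order of p among lower genes with at least 1 CPM. It had 5.40 to 19.97 CPM (median 8.997) at 50 mg/kg, against 18.6, 18.5, 9.39, 30.7 and 16.4 CPM at 0.5 mg/kg, and the groups overlapped. Its log2 fold change was -0.95 ± 0.22 (SE; adjusted p = 0.999 in edgeR), with -1.18 in the run 601 to 616, -0.72 in the run 619 to 632 and -0.62 without 0.5 mg/kg replicates 1 and 2. Alas1, the rate-limiting enzyme of heme synthesis, had 127 to 329 CPM (median 218) at 50 mg/kg, against 402, 548, 615, 187 and 305 CPM at 0.5 mg/kg, a log2 fold change of -0.74 ± 0.20 (SE) that was -0.77 without the mice that stood apart. Foxa2, a transcription factor of the hepatocyte, had 19.0 to 44.8 CPM (median 24.9) at 50 mg/kg, against 35.5, 42.04, 50.4, 29.99 and 56.8 CPM at 0.5 mg/kg (-0.67 ± 0.19, SE). The galectin gene Lgals1 was at -0.58. For Fam25c the value was -0.49 without 0.5 mg/kg replicates 1 and 2, against -0.80 with them. For Tifa, an adaptor of innate immune signalling, and the long RNA Ctcflos the difference moved with the mice that stood apart: 0.5 mg/kg replicates 1 and 2 held 57.3 and 77.5 CPM of Tifa and no other mouse more than 26.003 CPM, and its log2 fold change was -0.41 without them, against -1.16 with them, while Ctcflos was at -0.64, against -1.24.

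Nelfe, a subunit of the complex that pauses RNA polymerase II near promoters, was the lower gene of smallest p whose groups did not overlap. It had 15.1 to 26.4 CPM (median 19.1) at 50 mg/kg, against 37.1, 34.1, 31.7, 28.4 and 28.6 CPM at 0.5 mg/kg, a log2 fold change of -0.64 ± 0.16 (SE; -0.55 without 0.5 mg/kg replicates 1 and 2). The other 3 genes whose 50 mg/kg mice all lay below were Atp6ap2, an accessory subunit of the proton pump of lysosomes (31.8 to 45.2 CPM against 46.4 to 55.3 CPM), the mitochondrial ribosomal gene Mrps14 (19.9 to 32.4 against 32.5 to 36.7 CPM) and 1810013L24Rik (38.6 to 46.5 against 46.8 to 55.2 CPM). In these the gap between the groups was small beside the spread within them.

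Nelfe and Hspa1b lie in the same stretch of chromosome 17, the gene-dense class III region of the major histocompatibility complex. Of 14 tested genes from C4b to Hspa1b, 11 had negative log2 fold changes. Between Cfb and Hspa1b the values were small, so lower levels did not run on to Hspa1b. They were -0.12 for C2, -0.06 for Zbtb12, 0.03 for Ehmt2, 0.16 for Neu1 and 0.003 for 1110038B12Rik. The 7 consecutive tested genes from Cyp21a1 to Cfb (34801348 to 34862518 in mm10) were all negative, with a median of -0.57, and 6 of them had an unadjusted p under 0.05, where over all 13653 genes 6428 were negative and 1.43% were lower at that p. This stretch was picked after its values were seen, so the count is a description. Besides Nelfe they are the steroid 21-hydroxylase gene Cyp21a1, the complement genes C4a and Cfb, Stk19, and Dxo and Skiv2l, which act in RNA decay. Cyp21a1 had 0.297 to 2.36 CPM (median 0.651) at 50 mg/kg, against 4.32, 7.68, 15.1, 2.11 and 0.937 CPM at 0.5 mg/kg, a log2 fold change of -2.37 ± 0.66 (SE), and the 3 highest values were the 0.5 mg/kg mice of the run 601 to 616. Stk19 was at 58.3, 43.1 and 31.7 CPM in those 3 mice, 17.5 and 19.0 CPM in the other 0.5 mg/kg mice, and 15.8 to 25.99 CPM at 50 mg/kg. Skiv2l had 171, 151 and 94.2 CPM in the 3 mice, 83.9 and 84.5 CPM in the other 0.5 mg/kg mice, and 70.9 to 98.3 CPM at 50 mg/kg. Over the 7 genes the median was -1.02 within the run 601 to 616 (7 negative), -0.04 within the run 619 to 632 (4 negative) and -0.13 without 0.5 mg/kg replicates 1 and 2 (6 negative). Several of these genes overlap or abut on opposite strands, and the strand setting of the counting is not given in the sources used here, so reads of neighbours cannot be told apart. Cyp21a1 is also 1 of the 8 markers of steroid-producing cells, of which Cyp11a1, Cyp11b1 and Mc2r were at 0 in all 13 mice, while Star reached 6.11 and 4.45 CPM and Cyp17a1 4.72 and 3.28 CPM at 50 and 0.5 mg/kg.

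**Figure D2:**
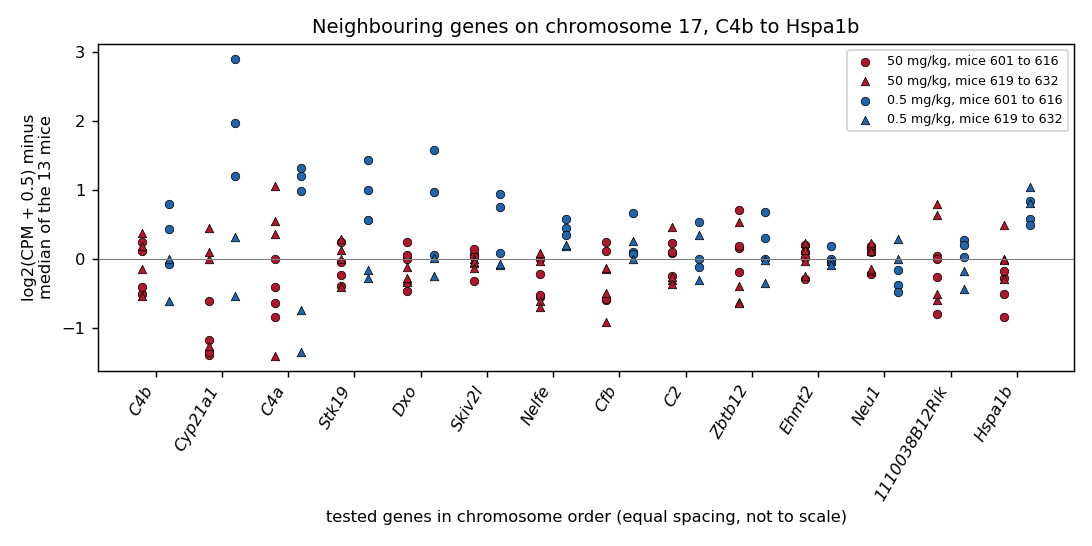
Level of each of the 14 tested genes from C4b to Hspa1b in each mouse, as log2(CPM + 0.5) minus the gene's median over the 13 mice (vertical axis), with genes in chromosome order at equal spacing. Red points are 50 mg/kg and blue points 0.5 mg/kg, circles mice 601 to 616 and triangles mice 619 to 632. The highest point of each of Cyp21a1, C4a, Stk19, Dxo and Skiv2l is a 0.5 mg/kg mouse of the run 601 to 616, and for Nelfe the 0.5 mg/kg mice of both runs lie above all 50 mg/kg mice.

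Among genes higher at 50 mg/kg, Idh3a, the catalytic subunit of the mitochondrial isocitrate dehydrogenase of the citric acid cycle, had 27.5 to 39.6 CPM (median 31.0) at 50 mg/kg, against 17.1, 24.5, 22.3, 16.98 and 22.8 CPM at 0.5 mg/kg. The groups did not overlap, and the log2 fold change was 0.60 ± 0.13 (SE), with 0.57 and 0.59 within the runs 601 to 616 and 619 to 632. Miga2, which acts in fusion of mitochondria, had 54.9 to 86.9 CPM (median 67.7) at 50 mg/kg, against 41.6, 36.9, 44.5, 47.6 and 54.8 CPM at 0.5 mg/kg (0.59 ± 0.14, SE). The homeobox gene Meis2 had 3.67 to 5.34 CPM (median 4.65) at 50 mg/kg, against 3.34, 3.37, 2.79, 2.35 and 1.99 CPM at 0.5 mg/kg (0.77 ± 0.18, SE). All 3 kept their direction in each run, and without 0.5 mg/kg replicates 1 and 2 they were at 0.57, 0.48 and 0.87. Over 0, 0.5, 5 and 50 mg/kg, Idh3a averaged 23.4, 20.7, 31.8 and 31.0 CPM. In the same order Miga2 averaged 54.2, 45.1, 58.6 and 67.8 CPM, and Meis2 4.38, 2.77, 5.82 and 4.53 CPM. In each of these genes the mean at 0.5 mg/kg was the lowest. Gm42839, an unnamed gene model near the detection limit, was at 1.36 to 4.34 CPM against 0.585 to 1.21 CPM (1.47 ± 0.35, SE). The other 4 genes whose 50 mg/kg mice all lay above were Gm4430, the RNA-processing gene Elac1, the galactosyltransferase gene B3galt6 and Pde6d, with log2 fold changes of 0.81, 0.41, 0.68 and 0.36.

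Nr3c2, which encodes the mineralocorticoid receptor, had the smallest p of the higher genes and overlapping groups, at 9.41 to 22.1 CPM (median 14.2) at 50 mg/kg, against 9.22, 9.43, 12.6, 8.06 and 7.73 CPM at 0.5 mg/kg (0.75 ± 0.16, SE; adjusted p = 0.999 in edgeR). The remaining higher genes of the rule were the lysosomal sulfamidase Sgsh (0.76), the scaffold gene Akap5 (0.94), R3hdml (0.998), the DNA helicase Blm (1.24) and Tex9 (1.18). Each had a positive value in both runs, and their groups overlapped.

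Cyp7a1, which catalyses the rate-limiting step from cholesterol to bile acids, was at 103 to 333 CPM (median 177) at 50 mg/kg, against 135, 232, 87.3, 36.3 and 41.9 CPM at 0.5 mg/kg. The lowest values were the 0.5 mg/kg mice of the run 619 to 632. Replicate 3 at 0.5 mg/kg, of the run 601 to 616, also lay below all 50 mg/kg mice, while replicates 1 and 2 lay within their range. The log2 fold change was 1.13 ± 0.41 (SE; adjusted p = 0.999 in edgeR) over all 13 mice, 0.32 within the run 601 to 616 and 2.37 within the run 619 to 632, and the test of that difference between the runs gave an unadjusted p of 0.00212 and an adjusted p of 0.226 in edgeR, where 17.7% of all genes had an unadjusted p under 0.05 in that test. Without 0.5 mg/kg replicates 1 and 2 it was 1.84 ± 0.36 (SE), with an adjusted p of 0.836 in edgeR and 0.000794 in DESeq2, which then called it and Hspa1b. Of the 16 tested genes of bile acid synthesis, Cyp7a1 included, 4 were positive and 12 negative (median -0.06), with Cyp2c70, which makes muricholic acids in mice, at -0.42 ± 0.22 (-0.048 without 0.5 mg/kg replicates 1 and 2) and the carrier Scp2 at -0.25 ± 0.18 (SE). Akr1d1, the 5-beta-reductase of the pathway, was at 0.19 ± 0.17 (SE).

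Over all 13 mice the targets of the receptors for foreign chemicals were split between the directions. CAR targets were positive in 11 of 22 genes (median 0.00) and PXR targets in 8 of 16 (median 0.00), beside 7225 of 13653 over all genes. Most were negative without 0.5 mg/kg replicates 1 and 2: 18 of 22 CAR targets (median -0.22), 13 of 16 PXR targets (-0.16) and 8 of 9 targets of the dioxin receptor AhR (-0.16, against 0.08 over all mice), beside 6644 of 13653 genes. The 0.5 mg/kg mice kept in that fit were replicates 3 to 5, and replicates 4 and 5 lay at -33.9 and -39.8 on the leading component. Cyp2b10, the P450 most used as a readout of CAR, had 1.12 to 12.2 CPM (median 3.68) at 50 mg/kg, against 2.75, 4.58, 4.57, 5.08 and 5.39 CPM at 0.5 mg/kg, a log2 fold change of 0.00 with a 95% confidence interval of -0.93 to 0.92. The 50 mg/kg mice spread on both sides of the 0.5 mg/kg mice, with replicate 1 at the top. Cyp3a11, the main readout of PXR, had 3126 to 5519 CPM at 50 mg/kg and 3574 to 5429 CPM at 0.5 mg/kg (-0.09, interval -0.51 to 0.34), and Cyp2c55 was at -0.08 (-0.64 to 0.49). The dioxin receptor targets Cyp1a1 and Cyp1a2 were at 0.13 (-0.75 to 1.004) and -0.06 (-0.55 to 0.42). For Nqo1, an antioxidant enzyme under NRF2, the value was 0.09 (-0.53 to 0.72), for the glutathione transferase Gstm3 0.31 (-0.28 to 0.90) and for the carboxylesterase Ces2a -0.15 (-0.61 to 0.31). Each interval holds 0 and also values past 0.3 in at least 1 direction, so these data do not show that the doses act alike. Intervals were also wide for the fatty acid hydroxylases Cyp4a10 (0.01, -0.80 to 0.83) and Cyp4a14 (0.39, -0.96 to 1.74), which are targets of PPAR-alpha and varied among mice of the same dose, Cyp4a14 being at 91.8 to 431 CPM at 50 mg/kg and at 48.3, 60.1, 85.4, 257 and 556 CPM at 0.5 mg/kg.

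No CAR target had an unadjusted p under 0.05, and among PXR targets only Alas1 did. In the CAR list the other members of smallest p were the sulfotransferase Sult1d1 (0.43), Aldh1a7 (-0.22) and Gsta1 (-0.35), and in the PXR list the transporter Slco1a4 (0.56) and Cyp3a13 (-0.31). The NRF2 targets were negative in 16 of 25 genes (median -0.11), and in 23 of 25 (median -0.26) without 0.5 mg/kg replicates 1 and 2. Gclc, the rate-limiting enzyme of glutathione synthesis, had 213 to 336 CPM (median 262) at 50 mg/kg, against 293, 261, 356, 519 and 347 CPM at 0.5 mg/kg (-0.43 ± 0.17, SE), and -0.61 without 0.5 mg/kg replicates 1 and 2. Hmox1, which breaks down heme, had 4.54 to 12.7 CPM (median 8.97) at 50 mg/kg, against 26.1, 19.4, 7.74, 19.2 and 8.78 CPM at 0.5 mg/kg (-0.78 ± 0.29, SE), and -0.28 without them. Of the 13 tested genes of heme synthesis and breakdown, 7 were negative (median -0.12), Alas1 and Hmox1 with an unadjusted p under 0.05 and the others named, Blvra and Uros, at -0.28 and -0.16. In the PPAR-alpha list 22 of 31 genes were negative (median -0.09), and 27 of 31 (median -0.35) without 0.5 mg/kg replicates 1 and 2. That fit keeps 0.5 mg/kg replicates 4 and 5, whose PPAR-alpha genes summed to 17291 and 15311 CPM. Replicate 3 had 12473 CPM and the 50 mg/kg mice 11411 to 13452 CPM. NRF2 sums were 7207.5 and 7341.4 CPM in replicates 4 and 5, 4976 in replicate 3 and 3887.6 to 6914 at 50 mg/kg. The part of these mice in the medians was not tested. The hormone gene Fgf21 was the positive member of smallest p (1.01 ± 0.47, SE), with 0.584 to 8.93 CPM at 50 mg/kg, against 0.589, 1.21, 1.01, 2.23 and 1.76 CPM at 0.5 mg/kg. Its 3 highest values were 50 mg/kg mice of the run 619 to 632. For Acot3, 50 mg/kg replicates 1 and 2 held 37.2 and 23.0 CPM and no other mouse more than 4.49 CPM, with a log2 fold change of 1.20 ± 0.96 (SE) over all mice and 0.20 without 0.5 mg/kg replicates 1 and 2. Ehhadh was at -0.20 and Vnn1 at -0.41.

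Acute phase genes were lower at 50 mg/kg as a list, with 32 of 35 negative and a median of -0.37, and 0 passed over all genes. At an unadjusted p under 0.05 there were 2 lower (1.43% of all genes were), the serum amyloid gene Saa3 and Cd14, the co-receptor for bacterial lipopolysaccharide. Saa3 was at 2.41 to 10.7 CPM at 50 mg/kg, against 48.5, 91.9, 6.72, 11.2 and 5.62 CPM at 0.5 mg/kg. Saa1 was at 27.7 to 655 CPM at 50 mg/kg, against 2311, 3233, 185, 65.1 and 19.3 CPM at 0.5 mg/kg, and the metallothionein gene Mt2, which also follows glucocorticoids, at 1.75 to 68.5 CPM, against 154, 339, 2.28, 2.85 and 5.15 CPM. In all 3 genes the high values at 0.5 mg/kg were those of replicates 1 and 2, and the other 3 mice lay within or near the range of 50 mg/kg. Without replicates 1 and 2 the list turned direction, with 25 of 35 positive and a median of 0.16. Within the run 601 to 616 the median was -0.71, and within the run 619 to 632 it was 0.18. Among genes with the smallest p, Saa3 was at -2.07 ± 0.59 (SE) with these mice and -0.48 without, Cd14 at -0.80 and -0.34, the interleukin-1 antagonist Il1rn at -0.85 and -0.45, and the lipopolysaccharide-binding protein gene Lbp at -0.57 and -0.11. Cd14 and Il1rn had few reads. Cd14 was at 0.594 to 1.74 CPM at 50 mg/kg and 1.01 to 2.94 CPM at 0.5 mg/kg. Il1rn was at 0.478 to 3.05 CPM and 1.29 to 5.39 CPM. The summed neutrophil and monocyte markers, given above, moved with this list. Kupffer cell and macrophage markers did so too: 14 of 15 were negative over all mice (median -0.10), 15 of 15 in the run 601 to 616 (-0.35), and 5 of 15 without replicates 1 and 2 (0.12), and they summed to 396 to 690 CPM at 50 mg/kg and 398 to 635 CPM at 0.5 mg/kg. The part of either cell type in the result was not tested. In bulk liver RNA, more cells of a type and more RNA per cell cannot be told apart.

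**Figure D3:**
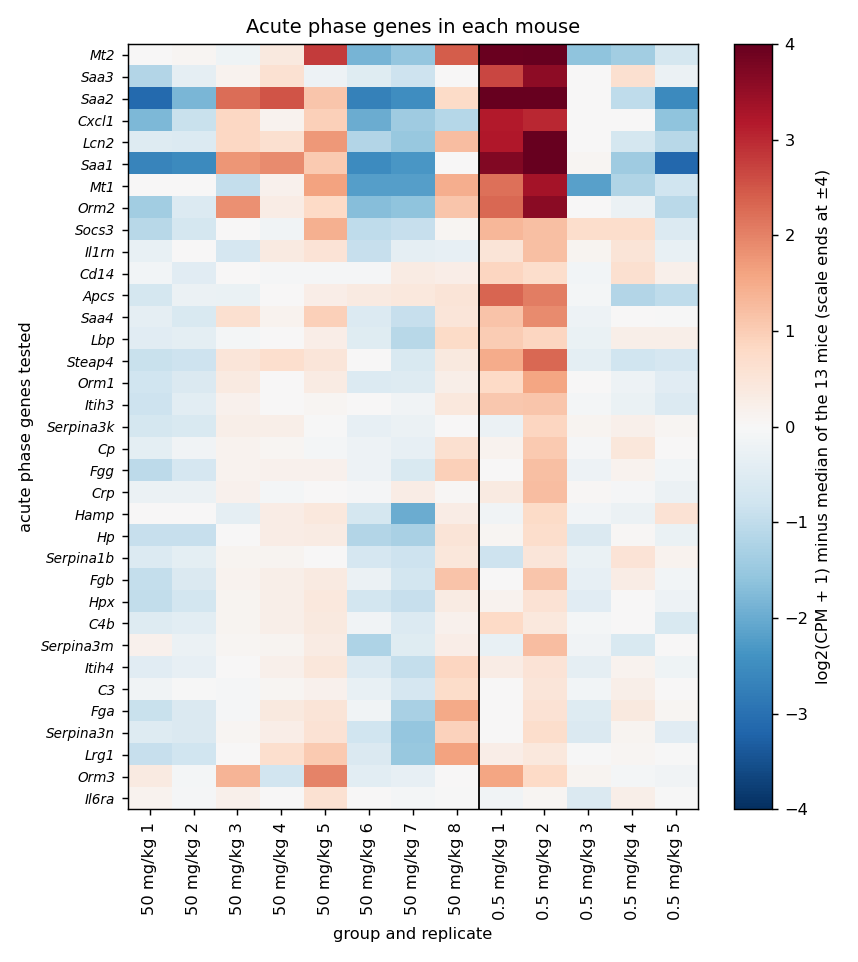
Acute phase genes (rows, 35 tested) in each of the 13 mice (columns, 50 mg/kg left of the line and 0.5 mg/kg right of it), coloured by log2(CPM + 1) minus the gene's median over the 13 mice. The highest levels at the top of the map are in 0.5 mg/kg replicates 1 and 2, where Saa1 was at 2311 and 3233 CPM and at 185 CPM or below in replicates 3 to 5.

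Interferon response genes were negative in 31 of 40 (median -0.11) over all mice and positive in 23 of 40 (median 0.03) without 0.5 mg/kg replicates 1 and 2. Oasl1 (0.49 ± 0.20, SE) and the GTPase gene Gbp2 (-0.61 ± 0.28) had an unadjusted p under 0.05 in opposite directions (0.52 and -0.23 without these mice), with Ifi27 at -0.33 and Irf9 at -0.25. Fas, the death receptor in the p53 list, was at 11.5 to 20.05 CPM at 50 mg/kg, against 34.7, 45.5, 22.5, 23.1 and 14.8 CPM at 0.5 mg/kg (-0.69 ± 0.21, SE), and at -0.31 without these mice. The p53 list as a whole was positive in 7 of 17 genes (median -0.04), with Plk2 at 0.38, Zmat3 at -0.21 and Ddit4 at 0.33. Glucocorticoid targets were positive in 8 of 18 (median -0.22), and in 10 of 18 (median 0.04) without these mice. Fkbp5, a readily induced target, was at 0.41 ± 0.27 (SE), while Errfi1 (-0.54) and Klf9 (-0.22) were negative, as was Zbtb16.

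Estimated differences between the doses often went opposite ways in the 2 runs, but no gene passed the test of that difference. The counts called within each run do not by themselves show that the runs differ. Within the run 601 to 616, edgeR's quasi-likelihood test called 1 gene higher (0.00733% of 13639 tested) and 12 lower (0.088%), and within the run 619 to 632 it called 0, with a smallest adjusted p of 0.543 and 851 genes at an unadjusted p under 0.05. The test of the difference itself, a dose by run interaction, called 0 of 13653 genes in edgeR, with a smallest adjusted p of 0.113 for Zfp809. At an unadjusted p under 0.05, where 683 genes would be expected with no difference, 2412 (17.7%) were found. Without 0.5 mg/kg replicates 1 and 2 that number was 540. Over 13504 genes tested in both runs the log2 fold changes had Pearson's r of -0.38 and Spearman's rho of -0.42, and 33.2% had the same sign. Without 0.5 mg/kg replicates 1 and 2, which leaves 1 mouse at that dose in the run 601 to 616, r was -0.02 and rho -0.07, with 45.9% of the same sign. Genes are not independent, and these correlations are descriptions across genes.

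The 12 genes that fell in the run 601 to 616 were picked by a test on the mice of that run. Their high levels in its 3 mice at 0.5 mg/kg follow in large part from that choice and are a description. Myc, the growth transcription factor, was at 2.86 to 4.96 CPM in the 50 mg/kg mice of that run, against 9.42, 19.7 and 15.9 CPM, a log2 fold change of -2.02 (adjusted p = 0.00302 in edgeR), and at 0.26 in the run 619 to 632. Socs3, the feedback inhibitor of cytokine signalling, was at 7.39 to 17.2 CPM, against 44.4, 40.6 and 28.8 CPM (-1.586, adjusted p = 0.0416 in edgeR), and at 0.04 in the run 619 to 632. The zinc finger gene Zfp809, a silencer of retroviruses, was at 24.9 to 30.9 CPM, against 52.8, 97.1 and 83.0 CPM (-1.52, adjusted p = 0.00121 in edgeR). At 50 mg/kg in the run 619 to 632, Myc reached 27.5 CPM and Socs3 48.0 CPM, above every 0.5 mg/kg mouse. Zfp809 reached 42.2 CPM there, below the 0.5 mg/kg mice of the run 601 to 616. The liver developmental factor Hhex fell by 1.17, Arid5b by 1.08 and Zc3h13 by 1.11 on the log2 scale. Cyp21a1, C4a and Stk19 of the chromosome 17 stretch fell by 4.201, 1.61 and 1.14. The non-coding or unnamed genes Gm16348, Egfros and Gm49413 fell by 2.03, 2.57 and 3.10. Npc1, the lysosomal cholesterol transporter, rose by 0.90, with 116 to 149 CPM against 67.5, 62.8 and 78.5 CPM, and was at -0.28 in the run 619 to 632.

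**Figure D4:**
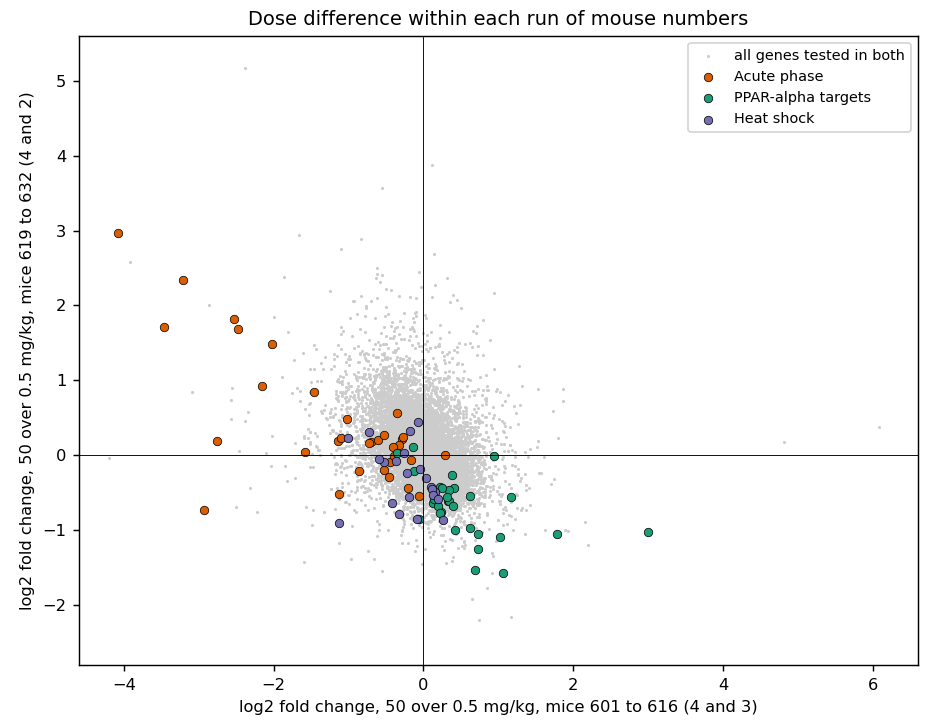
Log2 fold change of 50 over 0.5 mg/kg for each gene within mice 601 to 616 (horizontal axis, 4 and 3 mice) and within mice 619 to 632 (vertical axis, 4 and 2 mice). Grey points are the 13504 genes tested in both, and coloured points are members of the acute phase, PPAR-alpha and heat shock lists. Acute phase genes run toward the upper left and PPAR-alpha targets toward the lower right, and 33.2% of all genes have the same sign in both.

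By list, 33 of the 38 pathway lists had medians of opposite sign in the runs, 25 of them positive in 601 to 616 and negative in 619 to 632, and 8 the reverse. PPAR-alpha targets had 0.36 and -0.61, CAR targets 0.36 and -0.43, PXR targets 0.36 and -0.44 and NRF2 targets 0.24 and -0.44, in that order of runs. Mitochondrially encoded genes had -0.58 and 0.39. Only 5 lists had the same sign in both runs: heat shock genes, complement and coagulation genes, and clock activators and late-phase genes were negative, and sulfotransferases and female-biased liver genes were positive. Of the 38 lists 12 changed the sign of their median without 0.5 mg/kg replicates 1 and 2.

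**Figure D5:**
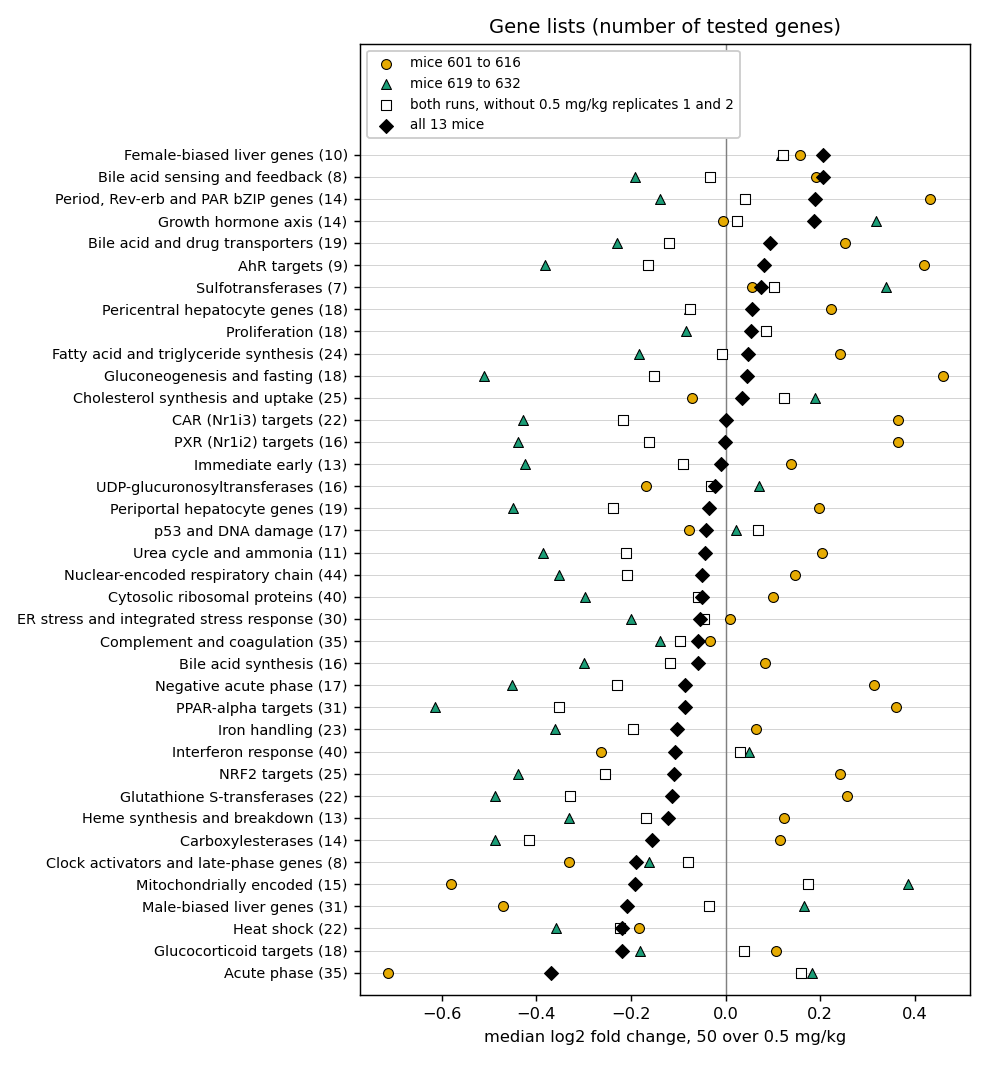
Median log2 fold change of 50 over 0.5 mg/kg for each pathway list (number of tested genes in brackets). Black diamonds are all 13 mice, open squares leave out 0.5 mg/kg replicates 1 and 2, yellow circles are mice 601 to 616 and green triangles mice 619 to 632. The circles and triangles lie on opposite sides of 0 for 33 of the 38 lists.

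Genes of the circadian clock and of the growth hormone axis are also known to set the level of many liver transcripts. Of 14 tested genes of the list of Period, Rev-erb and PAR bZIP genes, which peak in 1 part of the day, 13 were positive (median 0.19), and of 8 tested clock activators and late-phase genes 5 were negative (median -0.19). The counts without 0.5 mg/kg replicates 1 and 2 were 8 of 14 positive (median 0.04) and 4 of 8 negative (median -0.08). Hlf had 45.9 to 77.3 CPM (median 56.0) at 50 mg/kg, against 32.6, 37.9, 45.9, 50.6 and 55.3 CPM at 0.5 mg/kg (0.40 ± 0.16, SE), and a log2 fold change of 0.19 without those mice. The clock output gene Dbp varied more within a dose than between them, at 19.8 to 124 CPM at 50 mg/kg and 11.6 to 111 CPM at 0.5 mg/kg (0.69 ± 0.57, SE). Leaving out 50 mg/kg replicate 5 gave 0.39, leaving out 0.5 mg/kg replicate 5 gave 1.45, and leaving out 0.5 mg/kg replicates 1 and 2 gave 0.09. Nr1d1 (0.40) and Wee1 (0.40) likewise had wide errors. The repressor gene Cry1 was at -0.39 ± 0.17 (SE), Rora at -0.35, the clock activator Arntl at -0.74 ± 0.37 and Nfil3 at -0.38, and without 0.5 mg/kg replicates 1 and 2 these were at -0.37, -0.18, -0.33 and -0.24. In the run 619 to 632 the Period, Rev-erb and PAR bZIP list had a median of -0.14 (3 of 14 positive), against 0.43 in the run 601 to 616. The labels give no hour of harvest, and its part in the difference was not tested.

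Cish, a feedback inhibitor induced by growth hormone through STAT5, had 7.49 to 66.0 CPM (median 14.3) at 50 mg/kg, against 40.04, 93.8, 108, 24.4 and 54.8 CPM at 0.5 mg/kg (-1.54 ± 0.52, SE), and -1.49 without 0.5 mg/kg replicates 1 and 2. Igfbp3, a carrier of insulin-like growth factors, was at 0.54 ± 0.20 (SE), the repressor gene Bcl6 at 0.43 and the prolactin receptor gene Prlr at 0.28. Male-biased liver genes were negative in 26 of 31 (median -0.21), and in 19 of 31 (median -0.04) without 0.5 mg/kg replicates 1 and 2. Their members of smallest p went both ways, with the P450 genes Cyp4a12a (-0.58) and Cyp4a12b (-0.59), close copies that can share reads, against Cyp2u1 (0.56) and the steroid enzyme Hsd3b5 (0.47). Pericentral hepatocyte genes, expressed near the central vein, were positive in 13 of 18 (median 0.06), and in 8 of 18 (median -0.08) without 0.5 mg/kg replicates 1 and 2. Besides Cyp7a1 their named members take part in Wnt signalling, which sets that zone. Rnf43, a Wnt feedback inhibitor, had 17.2 to 48.8 CPM (median 37.0) at 50 mg/kg, against 16.5, 19.1, 19.5, 22.8 and 23.3 CPM at 0.5 mg/kg (0.71 ± 0.20, SE), with Tbx3 at 0.52 and Lgr5 at 0.35. In Rnf43 only 50 mg/kg replicates 3 and 4 reached the range of 0.5 mg/kg.

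Without 0.5 mg/kg replicates 1 and 2, 8 mice at 50 mg/kg stood against 3 at 0.5 mg/kg, and edgeR again called 0 of 14022 genes, with 698 at an unadjusted p under 0.05 and a smallest adjusted p of 0.836. Beside Cyp7a1, Idh3a, Meis2 and Gm42839, the higher genes of smallest p in that fit were the ribosomal pseudogene Rpl36a-ps2 (0.96 ± 0.22, SE), the huntingtin gene Htt (0.62 ± 0.15), Cenpt (1.104), Utp20 (0.58), Cd24a (1.13) and Dgke (0.77). The lower ones were Hspa1b, Gm12718 (-1.66), Cyp4a12b (-0.90 ± 0.21), Nat6 (-0.70), Gm16229 (-0.78), the skin chemokine gene Ccl27a (-0.76), Spry4 (-1.09), Lrit2 (-0.76), Dnajb1 (-0.67 ± 0.18) and Dlec1 (-0.73). With all 13 mice Rpl36a-ps2 was at 0.07, and 0.5 mg/kg replicate 1 held 24.1 CPM of it, more than any 50 mg/kg mouse. Gm12718 was not tested with all 13 mice.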

How the data were processed

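Liver total RNA was sequenced from 26 mice, and the authors deposited raw counts per gene, made with featureCounts on mm10 after bcl2fastq, per the submitters' processing notes. The aligner, annotation, versions and strand setting are not given in the sources used here. The combined table holds 54532 genes, and 54495 of its IDs were found in GENCODE M21, whose coordinates are used. The 26 per-sample tables held the same values, and no replicate pair looked like the same library.

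Counts of the 13 mice were filtered with filterByExpr, scaled by TMM and tested with edgeR 4.0.16 (R 4.3.3) quasi-likelihood with robust spread, on dose and run of mouse numbers, at a Benjamini-Hochberg adjusted p of 0.05. DESeq2 1.42.0 and limma-voom 3.58.1 were alternatives. Scripts were tested on data simulated without a run shift or a dose by run difference, so that test does not bear on the count of 0 genes. The p-values set the difference between the doses against the spread between these mice. Named genes were the 10 with the smallest p each way at a mean of at least 1 CPM, the same without 0.5 mg/kg replicates 1 and 2, up to 4 members of each of 16 lists, and 12 fixed genes. The members, the 49 lists and the mice left out were chosen with earlier results of these data known.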

Additional observations from a re-analysis of the deposited data

Results flagged for a closer look

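Among the 99 named genes, 198 gene and dose groups were examined for a mouse far from the others of its dose, and 12 were found, 7 at 50 mg/kg and 5 at 0.5 mg/kg. Chance gives about 1 in 20 groups. At 50 mg/kg, Idh3a was at 39.6 CPM in replicate 1, with the next mouse at 31.7. Ifi27 was low in the same mouse, at 50.3 CPM, with the next at 69.6. Irf9 was at 42.5 CPM in replicate 4, with the next at 35.4, and Cish at 66.0 CPM in replicate 5, with the next at 29.0. Cyp2u1 was at 99.2 CPM in replicate 6, with the next at 61.4. Gsta1 was at 2.90 CPM in replicate 7, with the next at 1.70, and Cyp4a12b at 67.6 CPM in replicate 8, with the next at 47.4. At 0.5 mg/kg, replicate 1 held 68.9 CPM of Ctcflos, with the next at 21.7, and 2.55 CPM of Tex9, with the next at 1.62. Replicate 2 held 27.6 CPM of Utp20, with the next at 18.7, and 464 CPM of Cyp3a13, with the next at 273. Dbp was at 111 CPM in replicate 5, with the next at 30.3.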

How the results depend on the processing

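The count of 0 genes called between 50 and 0.5 mg/kg was also 0 with all 26 mice in the fit, no run term, the run 619 to 632, no 0.5 mg/kg replicates 1 and 2, limma-voom, RLE or upper quartile scaling, a filter of 1 CPM in 5 mice, no robust spread, and an adjusted p of 0.10. It was 13 in the run 601 to 616, 1 in DESeq2 and 2 in DESeq2 without 0.5 mg/kg replicates 1 and 2. With no filter on low counts it was 107, with or without robust spread, and 60 of these had an unadjusted p under 0.05 in the filtered fit. In the unfiltered fits the median prior degrees of freedom, the weight of the common spread, were infinite, against 6.36 in the main fit. Genes that vary much between mice are then held to the common spread, so the 107 are not comparable with the other counts. Leaving out 1 mouse gave 0 to 2 genes, the 2 being Hspa1b (-1.10) and Myc (-1.86) without 50 mg/kg replicate 5, each with an adjusted p of 0.0276 in edgeR. The dose by run interaction called 712 genes with no filter, and 0 to 107 with 1 mouse left out: 107 without 50 mg/kg replicate 8, 10 without 0.5 mg/kg replicate 3, and 1 each without 0.5 mg/kg replicate 1 and 50 mg/kg replicate 1. The cause was not tested.

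Some log2 fold changes turned sign. Without the run term Rpl36a-ps2 was at -0.073, Cyp2b10 at 0.0011 and Cyp4a10 at -0.091. With all 26 mice Cyp4a10 was at -0.0049, and with upper quartile scaling Cyp2b10 at 0.004. In the run 601 to 616 the values were -0.53 for Rpl36a-ps2, -0.0064 for Htt, -0.066 for Cd24a, 0.30 for Spry4, 0.061 for Lrit2, 0.43 for Dlec1, 0.41 for Cyp2b10, 0.36 for Cyp2c55, 0.41 for Cyp1a2, 0.29 for Ces2a, 0.25 for Gsta4 and 0.23 for Ehhadh. In the run 619 to 632 they were -0.77 for Cyp1a1, -1.10 for Cyp4a10, -1.05 for Cyp4a14, -0.38 for Nqo1, -0.20 for Gstm3, 0.23 for Cyp2c70, 0.0375 for G6pdx, -1.02 for Acot3, -0.39 for Dbp, -0.14 for Wee1, -0.34 for Nr1d1 and 0.022 for Zmat3. Without 0.5 mg/kg replicates 1 and 2 they were -0.11 for Cyp1a1, -0.61 for Cyp4a10, -0.38 for Cyp4a14 and -0.24 for Nqo1, and in DESeq2 on the same mice -0.11, -0.62, -0.38 and -0.25 for these genes and -0.17 for Acot3. With 1 mouse left out, the ranges were -0.15 to 0.59 for Rpl36a-ps2, -0.45 to 0.13 for Cyp2b10, -0.27 to 0.087 for Cyp2c55, -0.076 to 0.40 for Cyp1a1, -0.18 to 0.09 for Cyp1a2, -0.26 to 0.23 for Cyp4a10, -0.064 to 0.33 for Nqo1 and -0.33 to 0.0396 for Ehhadh. No paired analysis was possible because the labels give mouse numbers and no replicate number shared between the doses.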
